A study of Mus musculus with 6 samples.

Results

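The gamma crystallins are 8 genes here, Cryga, Crygb, Crygc, Crygd, Cryge, Crygf, Crygn and Crygs, and they were read through every probe set of the array that is annotated to any of them. This gave 7 of the 22626 tested probe sets and 7 of the 13319 gene symbols they carry. Of these, 6 carry a single gene symbol (Cryga, Crygb, Crygd, Crygf, Crygn and Crygs) and 1 is shared by Crygc and Crygb. Crygc was therefore measured only together with Crygb, and Cryge was not measured under its own name. The data are microarray intensities of newborn mouse lenses (P0) from 3 wild-type littermates and 3 Le-AP-2alpha conditional mutants; the targeted gene is Tfap2a (Tcfap2a in the labels), which encodes the transcription factor AP-2alpha. All lenses were dissected and their total RNA was amplified and labelled in the same way, with 1 array per sample. Beyond the prefix Le- of the mutant label, the labels do not name the Cre driver. The deleted part of the gene and the number of animals behind a sample are not given there. The p-values therefore cover the spread among these 6 samples, which may be partly technical.

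Gamma crystallins are small, tightly folded structural proteins of the lens. They are made by fibre cells, the elongated cells that fill the lens, and they pack at very high concentration in the lens core, where their stability and close packing keep the tissue clear. Altered gamma crystallin genes are a known cause of cataract in mice, and older names of the genes such as Elo (Cryge), Nop (Crygb), Secc (Cryga) and Opj (Crygs) come from such lines. Cryga to Crygf are the core members, transcribed mainly while the primary and early secondary fibres form. Crygs is related to them but is most used in later fibres, and Crygn combines features of beta and gamma crystallins. Lens transcription factors of the Maf, Sox, Prox, Pax and Hsf families are known to act on gamma crystallin promoters.

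Crygd, Crygc, Crygb and Cryga follow Cryge on mouse chromosome 1 with 0 other protein-coding genes between neighbours, and Crygf lies on the same chromosome past 4 protein-coding genes (D630023F18Rik, Idh1, Pikfyve and Pth2r). Crygn is on chromosome 5 and Crygs on chromosome 16. The 120 bases before each annotated start are shown because the core members share sequence there that Crygs lacks. All 8 genes had an entry in the RefSeq promoter table of build GRCm38.p6. Capitals mark 3 runs on the strand of the gene. The run TATATA and another run, TTTGTG, are the longest found in the 250 bases before the start of every gene from Cryga to Crygf. The last, marked before Crygs, is TATAAA, a form of the TATA box.
Cryga, chr1:65103364-65103483, minus strand: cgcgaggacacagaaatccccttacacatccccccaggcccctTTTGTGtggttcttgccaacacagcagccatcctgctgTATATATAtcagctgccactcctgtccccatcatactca
Crygb, chr1:65082291-65082410, minus strand: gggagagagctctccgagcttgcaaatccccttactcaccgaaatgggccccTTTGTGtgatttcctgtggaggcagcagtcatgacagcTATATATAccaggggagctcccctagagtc
Crygc, chr1:65073533-65073652, minus strand: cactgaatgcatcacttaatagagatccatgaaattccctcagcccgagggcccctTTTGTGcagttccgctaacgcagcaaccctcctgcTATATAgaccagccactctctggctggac
Crygd, chr1:65063441-65063560, minus strand: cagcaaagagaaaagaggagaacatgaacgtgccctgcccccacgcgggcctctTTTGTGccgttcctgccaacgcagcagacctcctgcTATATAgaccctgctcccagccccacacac
Cryge, chr1:65051164-65051283, minus strand: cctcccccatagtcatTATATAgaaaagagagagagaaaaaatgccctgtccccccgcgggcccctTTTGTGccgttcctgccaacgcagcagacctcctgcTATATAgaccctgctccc
Crygf, chr1:65926402-65926521, plus strand: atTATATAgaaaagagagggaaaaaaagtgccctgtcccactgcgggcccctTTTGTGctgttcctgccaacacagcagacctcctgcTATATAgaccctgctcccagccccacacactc
Crygn, chr5:24757849-24757968, minus strand: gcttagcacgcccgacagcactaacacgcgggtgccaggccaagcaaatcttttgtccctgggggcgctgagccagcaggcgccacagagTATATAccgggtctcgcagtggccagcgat
Crygs, chr16:22811411-22811530, minus strand: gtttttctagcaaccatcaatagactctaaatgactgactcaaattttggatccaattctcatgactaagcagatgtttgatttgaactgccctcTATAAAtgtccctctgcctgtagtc

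Crygd, Cryge and Crygf had the longest run in common. The 33 bases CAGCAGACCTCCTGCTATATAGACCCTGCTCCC stood letter for letter before all 3 genes, beginning 45 bases before the annotated start of Crygd, 33 before that of Cryge and 47 before that of Crygf. Over the 250 upstream bases a local alignment of Cryge with Crygf ran for 231 columns at 90.9% identity, and that of Crygd with Crygf for 114 columns at 89.5%. Cryga and Crygb aligned over 84 columns at 71.4%. Crygs aligned with the core members over at most 25 columns. The close likeness of Crygd, Cryge and Crygf bears on the array, because the Crygf probe set is of the x_at type, in which probes can also match transcripts of related genes. Probe sequences were not used here, so whether it also measured Cryge or Crygd was not tested.

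Sequence motifs of known lens regulators were looked for in the same 250 bases on both strands. TATATA was present before 7 of the 8 genes, against 5.25% of the 32851 promoters in the table; its reverse complement is the same run, so each site counts on both strands. TTTGTG was present before 6 of 8 genes, against 15.6% of promoters on either strand. These runs were picked because Cryga to Crygf share them, so the contrast with other promoters is a description. TATAAA, which can overlap TATATA, was found only before Crygs (12.4% of promoters), beginning 25 bases before the start. The TATATA nearest the start of a gene began between 18 (Cryge) and 37 (Cryga) bases before it. Whether TATATA serves these genes as a TATA box was not tested. TGCTGA, a part of the Maf element, was found before Cryga, Crygc, Crygn and Crygs (16.1% of promoters), and ACAAT, a core of the Sox element, before Crygd, Cryge, Crygf and Crygs (27.7%). Crygd, Cryge and Crygf are alike upstream and each hold an ACAAT at 143, 133 and 147 bases before the start. Matches in genes so alike are not independent, so counts of genes are not comparable with shares of promoters. GCCNNNGGC, a form of the AP-2 element, was found before 0 of the 8 genes and in 13.7% of promoters. No match says only that these letters are absent from this window.

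All levels below are log2 of the deposited intensity. The gamma crystallins gave some of the strongest signals of the lens arrays, in mutants and wild types alike. The highest tested probe set of an array was at 13.90 to 13.97, and it was Cryba1 on 4 arrays, Cryba2 on wild-type replicate 3 and Cryga on mutant replicate 2. The shared Crygc and Crygb probe set lay 0.0052 to 0.24 below that maximum and ranked 3 to 6 among all tested probe sets. Cryga lay 0 to 0.51 below it (rank 1 to 17), Crygd 0.13 to 0.60 (rank 4 to 36) and Crygs 0.36 to 0.67 (rank 16 to 44). The Crygb probe set lay 0.54 to 0.80 below it, Crygf 0.58 to 1.19 and Crygn 0.86 to 1.96, where Crygn ranked 76 to 353. Signal also depends on the probes, so these gaps do not order the genes by transcript number. Control probe sets of the array reached 14.47 to 14.56, which is 0.55 to 0.65 above the highest tested probe set.

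**Figure D1:**
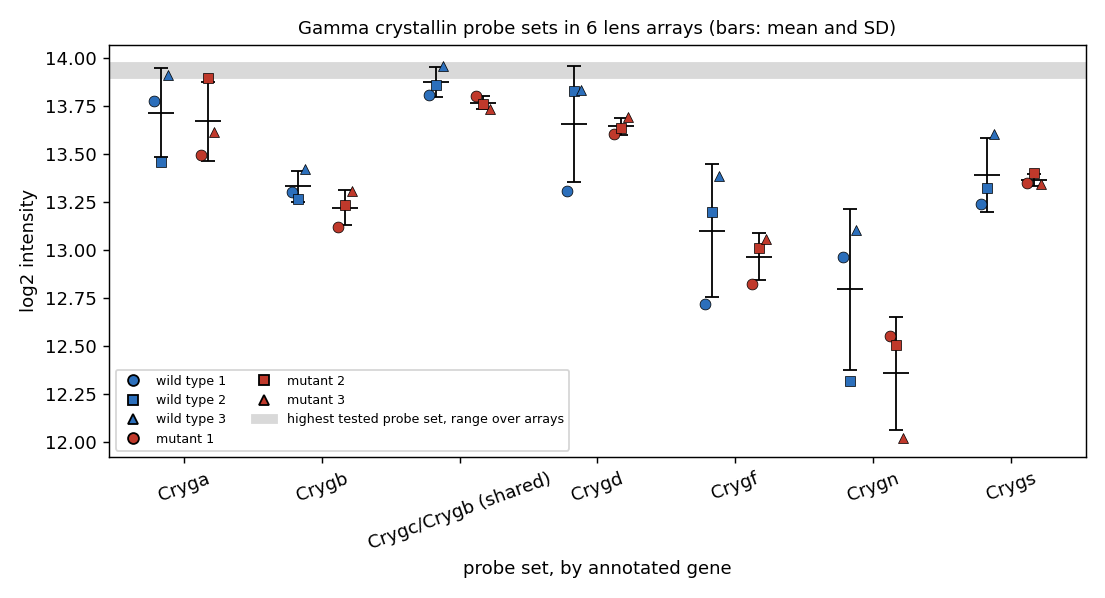
Log2 intensity of each gamma crystallin probe set on the 6 arrays, wild types in blue and mutants in red, with the replicate number given by the marker and the group mean and SD (n = 3) by the bars. The grey band spans the highest tested probe set of each array, 13.90 to 13.97, and the wild-type and mutant points of 6 of the 7 probe sets overlap.

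No gamma crystallin changed past the threshold. Over the whole array limma called 0 of 22626 probe sets at an adjusted p under 0.05 (0% of those tested), with 742 at an unadjusted p under 0.05, and among the gamma crystallins 0 of 7 were called and 0 had an unadjusted p under 0.05. Every one of the 7 had a limma adjusted p of 0.999. All 7 had a lower mean in mutants, with a median log2 difference of -0.11 and a range from -0.44 to -0.01, whereas 53.6% of all probe sets were lower, with a median of -0.02. The groups did not overlap for 1 of the 7, the shared Crygc and Crygb probe set, which was lower in mutants; 4.61% of all tested probe sets were lower without overlap and 3.74% higher. The shared direction did not hold under every setting. It held for 4 of 7 after quantile normalisation, with Cryga, Crygd and Crygs then above 0, and for 3 of 7 without wild-type replicate 3, where the median was 0.0063.

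Wild-type replicate 3 had the highest level of all 6 arrays for each of the 7 gamma crystallin probe sets. Averaged over the 7, with each probe set centred on its own mean, it stood at 0.26, against -0.10 to 0.0036 on the other 5 arrays. Of all tested probe sets 13.6% were highest on that array. Among the 86 probe sets within 1 of the maximum, which include 6 of the gamma crystallins, the share was 36%, or 31 of 86. Of the 7 alpha and beta crystallin probe sets in that range, 6 were highest there. The 31 include those 6 alpha and beta crystallins and the 6 gamma crystallins. On the other arrays the share of the 86 ran from 5.81% (mutant 1) to 19.8% (mutant 3). The high values of this array thus extended to other crystallins. Bright probe sets outside the crystallins were not counted apart. The labels say nothing that sets this sample apart, and what distinguishes it was not tested.

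**Figure D2:**
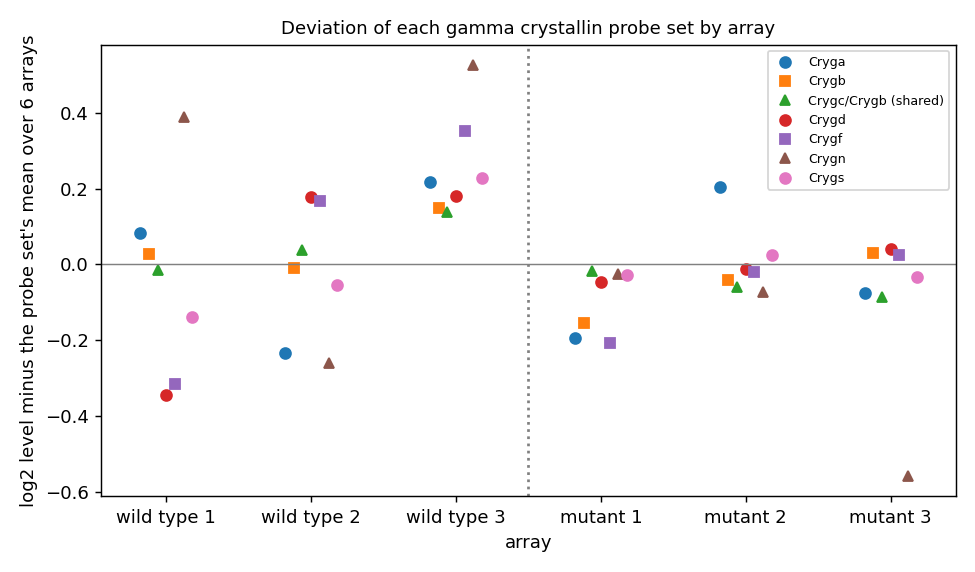
Deviation of each gamma crystallin probe set from its own mean over the 6 arrays, in log2 units, by array; each colour and marker is a probe set, wild types are left of the dotted line and mutants right of it. All 7 probe sets have their highest point on wild-type replicate 3, and Crygd and Crygf have their lowest on wild-type replicate 1.

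Wild-type replicate 1 also stood apart. Its Pearson correlation across all tested probe sets with the other arrays was 0.926 to 0.945, against 0.974 to 0.985 among those 5. It held the lowest value of 3 gamma crystallin probe sets (Crygd, Crygf and Crygs), while of all probe sets 24.2% were lowest and 32.2% highest there. Without it all 7 gamma crystallins were still lower in mutants, with a median log2 difference of -0.14 and a lowest limma adjusted p of 0.959. The share of all probe sets lower was then 50.9%. Tfap2a itself, on its brightest probe set, was at 9.57, 9.64 and 9.83 in mutants and 8.36, 9.26 and 9.56 in wild types. Another probe set of Tfap2a differed by 1.57 ± 0.49 (1.25 without wild-type 1), at 8.86, 7.85 and 9.22 in mutants and 6.44, 7.87 and 6.92 in wild types, and the remaining one by 0.36 ± 0.36. The targeted gene was thus not lower in the samples labelled mutant on any of its 3 probe sets, and since probe positions relative to the deletion are unknown, they cannot serve as a check of the labels.

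Among the core members, the probe set shared by Crygc and Crygb (1422674_s_at) read 13.80, 13.76 and 13.74 in mutants 1 to 3 and 13.81, 13.86 and 13.96 in wild types 1 to 3. Every mutant was below every wild type, but the closest pair, mutant 1 and wild-type 1, differed by less than 0.01 (13.8048 and 13.8066). The difference was -0.11 ± 0.16 (moderated SE of the limma fit, n = 3 per group), with a 95% interval of -0.50 to 0.28. It was -0.06 without wild-type replicate 3. Every ± value in the text is such an SE, which also draws on the spread of the whole array. Dimmer probe sets vary more, so for the brightest ones the SE and interval can be too wide. With a prior that follows signal level (trended prior) the SE of the shared probe set was 0.0998. The s_at type means that its probes match more than 1 transcript, so the part of Crygc in this signal cannot be told from that of Crygb.

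Crygb had a probe set of its own (1427264_at), at 13.12, 13.24 and 13.31 in mutants and 13.30, 13.27 and 13.42 in wild types. Mutant 3 lay above wild-types 1 and 2, so the groups overlapped. The difference was -0.11 ± 0.17, nearly the same as on the shared probe set, with an interval of -0.51 to 0.29, and it was below 0 in all 11 alternative settings that can move it.

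Cryga (1422652_at), the member next to Crygb on the chromosome, was at 13.50, 13.90 and 13.62 in mutants and 13.78, 13.46 and 13.91 in wild types. Mutant 2 was level with wild-type 3 near the top of the array, and wild-type 2 had the lowest value of all. The difference of -0.04 ± 0.21 was small beside the SD within groups, 0.20 in mutants and 0.23 in wild types. Its 95% interval of -0.55 to 0.46 corresponds to a fold of 0.68 to 1.38.

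Crygd (1419141_at), a major gamma crystallin of the lens core, showed 13.61, 13.64 and 13.69 in mutants and 13.31, 13.83 and 13.83 in wild types. The mutants lay close together, with an SD of 0.04, between a low wild-type 1 and the other wild types. The means were nearly equal, 13.64 and 13.66, with a difference of -0.01 ± 0.21 and an interval of -0.52 to 0.49. Without wild-type replicate 1 the difference was -0.19 ± 0.17 and without wild-type replicate 3 it was 0.08 ± 0.25, so its sign rested on single arrays.

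Crygf (1429948_x_at) followed the same order of wild types as Crygd. It was at 12.83, 13.01 and 13.06 in mutants and 12.72, 13.20 and 13.39 in wild types, again with wild-type 1 below every mutant and wild-types 2 and 3 above them. The difference was -0.14 ± 0.23 with all arrays, with an interval of -0.69 to 0.41. It was -0.33 ± 0.19 without wild-type replicate 1, with a limma adjusted p of 0.959, and 0.0063 ± 0.25 without wild-type replicate 3.

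Crygs (1420453_at), the member used most in later fibres, was at 13.35, 13.40 and 13.34 in mutants and 13.24, 13.32 and 13.61 in wild types. The mutants differed among themselves by less than 0.1 (SD 0.03), and the wild types had an SD of 0.19. Mutants lay above wild-types 1 and 2 and below wild-type 3. The difference was -0.02 ± 0.18, with an interval of -0.46 to 0.41, and 0.08 ± 0.20 without wild-type replicate 3.

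Crygn (1425286_at) was the least bright of the family and varied most. It was at 12.55, 12.50 and 12.02 in mutants and 12.97, 12.32 and 13.10 in wild types. Wild-types 1 and 3 were above every mutant, while wild-type 2 was below mutants 1 and 2. The difference of -0.44 ± 0.28 was the largest of the 7 in size, with a 95% interval of -1.11 to 0.24, a fold of 0.74 (0.46 to 1.18), an unadjusted p of 0.167 and a limma adjusted p of 0.999. It was below 0 in all 11 alternative settings that can move it, from -0.68 without wild-type replicate 2 to -0.27 without mutant replicate 3, and was not called under any of the 15 settings tried.

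**Figure D3:**
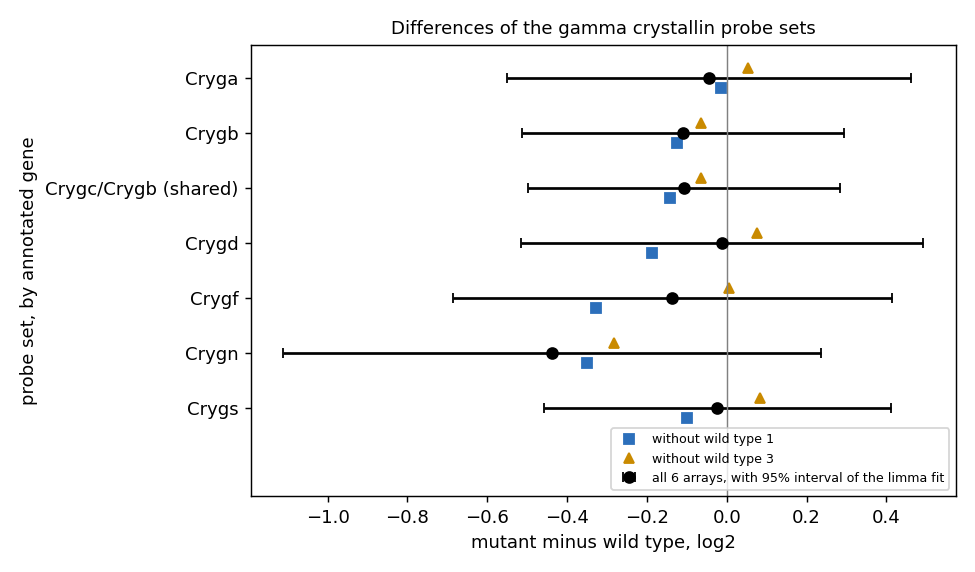
Mutant minus wild-type difference (log2) of each gamma crystallin probe set, with all 6 arrays and the 95% interval of the limma fit in black, without wild-type replicate 1 as squares and without wild-type replicate 3 as triangles. Every interval spans 0, and without wild-type replicate 3 Cryga, Crygd, Crygf and Crygs move above 0.

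Of the 21 pairs of gamma crystallin probe sets, 19 had a positive and 2 a negative correlation across the arrays. Over the 6 arrays Crygd and Crygf had a Pearson r of 0.91, Crygf and Crygs 0.79, and the Crygb probe set and the shared Crygc and Crygb probe set 0.56. Crygd and Crygn had an r of -0.27 and Crygd and Cryga -0.14. These are descriptions over 6 arrays. The values of different probe sets on an array come from the same RNA, and each r includes the high wild-type replicate 3. Cryga and Crygn had an r of 0.61; both were lower on wild-type 2 than on the other wild types, where Crygd and Crygf were lowest on wild-type 1.

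Group differences were small at this signal level across the array. The 18 tested probe sets whose mean lay within 0.5 of the maximum had a median absolute group difference of 0.03 and a largest of 0.16, and 3 of them are gamma crystallins. The 68 probe sets 0.5 to 1 below it, again with 3 gamma crystallins, had a median of 0.04 and a largest of 0.36. The 287 probe sets 1 to 2 below, which include Crygn, had a median of 0.08 and a largest of 0.98. Over 4 below the maximum the median was 0.20 and the largest 3.01. The median SD within groups rose over the same bins from 0.07 to 0.35. Whether the array compressed changes of the brightest transcripts was not tested, so the intervals given for the gamma crystallins are those of the signal and need not be those of the transcripts.

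**Figure D4:**
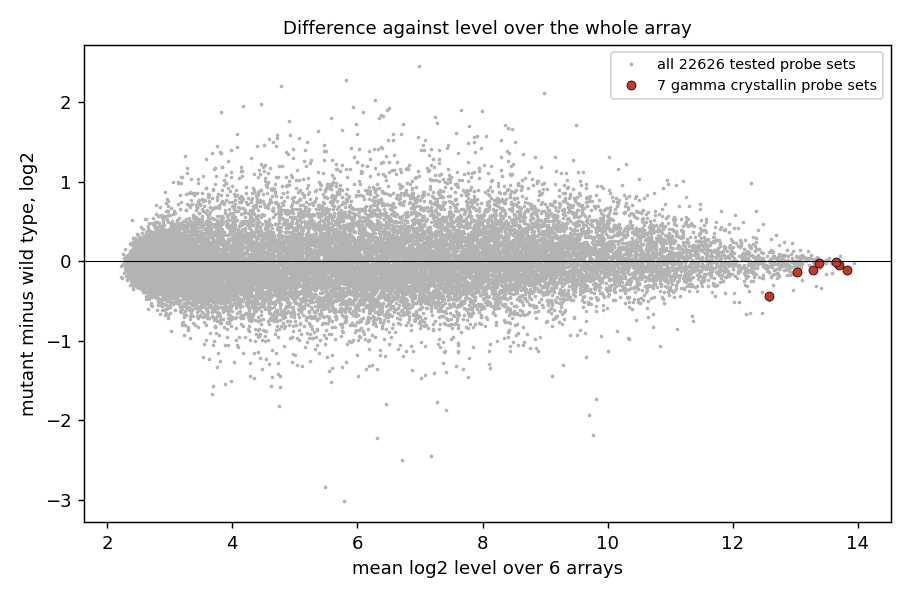
Mutant minus wild-type difference (log2) against the mean log2 level over 6 arrays, for all 22626 tested probe sets in grey and the 7 gamma crystallin probe sets in red. The gamma crystallins lie at the bright end, where the grey points spread least, and Crygn, the dimmest of them, lies lowest at -0.44.

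Among the other crystallins no change passed the threshold. Of 13 measured alpha, beta and other crystallins 10 were lower and 3 higher in mutants and 0 were called, with a median difference of -0.07 (-0.15 without mutant 2). Cryaa, a small heat shock protein and main alpha crystallin, differed by -0.05 ± 0.17 and Cryab, its partner, by -0.34 ± 0.23. Those of lowest p were Cryl1, an enzyme named after a lens protein of rabbits, at -0.64 ± 0.35 and Crybg1, a relative with crystallin domains, at 0.35 ± 0.22, both dimmer than the median probe set. Crybb2, the main basic beta crystallin of later lens growth, ranged from 11.02 to 13.58 among mutants, far more than any gamma crystallin, and differed by -0.39 ± 0.69.

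In a fixed list of lens transcription factors and coactivators none was called either (0 of 14 measured, with 9 lower and 5 higher, median difference -0.20). Whether each of them acts on gamma crystallin genes directly was not checked. Sox2, which works with Pax6 at crystallin genes, was at 8.34, 7.80 and 8.10 in mutants and 8.04, 8.78 and 8.78 in wild types, a difference of -0.46 ± 0.28. Hsf4, a heat shock factor of lens fibres, differed by -0.68 ± 0.55, Pitx3 by -0.54 ± 0.50 and Prox1, needed for fibre elongation, by -0.28 ± 0.43. Maf and Sox1, activators of crystallin genes, were both dim and differed by -0.32 ± 0.34 and -0.18 ± 0.19. For Pax6 the difference was 0.47 ± 0.47 with all arrays and -0.07 once wild-type 1 was left out. Those of lowest p were Foxe3, a dim factor of the lens epithelium, at -0.71 ± 0.29 and Crebbp, a histone acetyltransferase and coactivator, at 0.63 ± 0.37, or 0.21 without wild-type 1; the limma adjusted p of each was 0.999.

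Other fibre cell genes were read in the same way. Of 9 measured 6 were lower and 3 higher, 0 were called, and the median difference was -0.19. It was -0.45, with 7 lower, without wild-type 1 and -0.40 without mutant 2. Dnase2b, the nuclease that clears DNA from maturing fibres, was at 7.77, 9.04 and 8.36 in mutants and 10.10, 9.20 and 10.19 in wild types. Bfsp1, a beaded filament protein, was at 11.92, 12.30 and 12.21 against 12.95, 12.46 and 12.97. For both genes every mutant was below every wild type, with differences of -1.44 ± 0.41 and -0.65 ± 0.22 and a limma adjusted p of 0.999. They were named as the 2 of lowest p among the 9, and 4.61% of all tested probe sets were lower without overlap. Mip, the main membrane channel of fibres, differed by 0.03 ± 0.29, or -0.28 without wild-type 1. The difference between these genes and the gamma crystallins was not tested.

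Markers of the lens and of nearby cells were read beside these values. The 4 measured of 8 fibre markers (Mip, Bfsp1, Gja3 and Dnase2b) had a summed intensity of 11523 to 12449 in mutants and 14362 to 17393 in wild types, with 3 lower. The 8 lens epithelium markers had 16209 to 17451 and 14854 to 18137, with 5 lower. Such sums are set mainly by the brightest genes of a list, here Mip and Bfsp1 for fibres and Sparc and Gja1 for the epithelium. Without wild-type 1 all 4 fibre markers and all 8 epithelium markers were lower. The epithelium median was -0.19, or -0.29 without mutant 2. Of its 8 markers 3, Cdh1 (-1.29), Slc38a3 (-1.04) and Foxe3 (-0.71), were lower without overlap, as were 4.61% of all tested probe sets. Foxe3 was below the array median on all 6 arrays. Pdpn (-0.36) and Sparc (-0.009) were lower with overlap, while Pax6 (0.47), Gja1 (0.20) and Npnt (0.003) were higher. In whole lenses, fewer cells of a type and less RNA per cell cannot be told apart. All 9 measured of 12 neural retina markers were higher in mutants, with a summed intensity of 2183 to 2985 against 466 to 1549. Their median difference was 1.16, and 0.64 with wild-type 1 left out, when 1 was lower. Nefm and Rcvrn were below the array median on all 6 arrays. Snap25 read 4.98 on wild-type 1, the array with the sum of 466, against 9.30 and 9.48 on wild-types 2 and 3. All 9 macrophage and leukocyte markers had a higher mean in mutants, but the summed intensity was high only on mutant 2, at 2878. Mutants 1 and 3 were at 617 and 663, within the wild-type range of 380 to 744. The median difference of 0.89 was 0.19 without mutant 2, when 1 was lower. Of the pigment cell markers 5 of 7 were higher (643 to 895 against 419 to 576), and of the mesenchyme markers 7 of 8 (316 to 659 against 160 to 461). Without wild-type 1 the pigment median went from 0.56 to 0.19 and the mesenchyme median from 0.36 to 0.16, with 3 of 8 then lower. Endothelial markers were lower for 5 of 7 (1204 to 1684 against 1468 to 1886), erythroid for 2 of 3 (23.0 to 216 against 20.1 to 145) and surface epithelium for 1 of 6 (72.3 to 80.1 against 67.1 to 97.7). Without wild-type 1 the erythroid median went from -0.17 to 0.04 and the surface epithelium median from 0.15 to 0.23. Many of these markers were dim. A mean at or above the median level of all probe sets was reached by 0 of 3 erythroid and 0 of 6 surface epithelium markers. It was reached by 4 of 9 macrophage, 4 of 7 pigment and 5 of 8 mesenchyme markers. In all of these lists 0 genes were called. The part of other cells in the gamma crystallin values was not tested.

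The genes whose levels over the 6 arrays were most like the mean gamma crystallin profile were picked from 6848 genes at or above the median level that are not crystallins. They were Hmgn3, a nucleosome-binding protein (Pearson r = 0.991 over 6 arrays), Ccdc117 (0.986), Nupr1, a stress-induced nuclear protein (0.967), Gtf2h4, a subunit of the general transcription factor TFIIH (0.966), and Pgap2 (0.965). Hmgn3 was at 12.18, 12.39 and 12.22 in mutants and 12.25, 12.27 and 12.77 in wild types. Each of the 5 had its highest value on wild-type replicate 3, as the gamma crystallins did, and all were picked for a high r over only 6 arrays.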

How the data were processed

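Intensities of 22690 probe sets on 6 arrays were deposited by the authors on a linear scale; RMA, which corrects background, normalises arrays by quantiles and summarises probes, is named per the submitters' processing notes, without version or settings, and how its log2 output became linear values is not stated. Such normalisation can remove shifts common to an array and narrow differences at the ends of the range. Here log2 was taken with no pseudocount, 64 control probe sets were left out, and 22626 were fitted with limma 3.58.1 in R 4.3.3 (lmFit, eBayes, mutant against wild type, two-sided, Benjamini-Hochberg over all, threshold 0.05). Probe sets were named from the platform annotation of GEO, updated by Entrez ID: 20380 had 1 symbol, 691 several and 1555 none. Genes outside the family were represented by their brightest probe set. No column of values was left out (0), and no arrays were duplicates: at most 0.186% of values were equal in a pair. Whether equal replicate numbers mark paired samples is not known, and the main fit did not treat them as pairs.

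The members, gene lists, alternatives and rule for named genes were chosen with earlier results of these data known. The rule took all members, the 2 genes of lowest p from each list, fixed lens genes and the 5 genes most alike in pattern. The fit was run on simulated data with independent noise for each probe set, as a check of the code. The simulation had no outlying array and no upper limit of signal, so it does not bear on the brightest probe sets. Promoters were searched with Python 3.11.15 and aligned locally with Biopython 1.88 (match 2, mismatch -3, gap opening -5, extension -2). Gene lists without mutant 2 were added after seeing the data, as plain differences of means. In comparing settings, a difference within 1 standard error of 0 had no direction. Protein sequences were not used here.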

Additional observations from a re-analysis of the deposited data

How the results depend on the processing

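Of 105 differences of single gamma crystallin probe sets under 15 settings, none was called. The block, the dim filter and the 2 priors cannot move a difference; in the other 11 settings 10 of 77 differences were above 0. With all arrays 6 of the 7 lay within 1 standard error of 0 in the main fit and so had no direction to lose under that rule. The priors, the pseudocount and the weights change the standard error, and the count depends on it. The shared Crygc and Crygb probe set lay beyond 1 standard error with the trended prior (-0.107, standard error 0.0998). It and Crygb did so with the pseudocount, and every member did with array weights. Quantile normalisation left 4 of the 7 lower, and array weights called 7 probe sets over the whole array but 0 gamma crystallins (lowest adjusted p 0.275); these weights gave wild-type replicate 3 a weight of 5.65 against 0.224 and 0.569 for the other wild types. Leaving out 1 array at a time, the median difference ran from -0.14 to 0.0063 and the number lower from 3 to 7, the extremes on the upward side coming without wild-type replicate 3; 5 were lower without mutant replicate 1 and 6 without wild-type replicate 2. The cause was not tested. With the replicate number as a block (replicate block) 0 probe sets were called, as without it. The differences are the same by construction (7 lower). Deviations of same-numbered arrays correlated at -0.07, -0.26 and -0.16. These values include the outlying wild-type 1 and cannot settle whether same-numbered samples share a litter or a batch. The median was -0.20 with array weights, -0.17 after median centring (all probe sets -0.08) and -0.05 after quantile normalisation. A pseudocount of 16 and leaving out wild-type 1 with mutant 2 gave 7 lower and medians of -0.11 and -0.14. Counting only probe sets of 1 gene, or the brightest a gene, gave 6 of 6 lower and a median of -0.08. The number of arrays and signals close to the top of the array limit these comparisons.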
